A study of Mus musculus with 12 samples.

Results

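The expression of 9 genes of transforming growth factor beta (TGF-beta) signalling was followed in whole mouse lung. They were the ligands Tgfb1, Tgfb2 and Tgfb3, the receptors Tgfbr1, Tgfbr2 and Tgfbr3, the signal transducers Smad2 and Smad3, and the target gene Ccn2. The members were taken by gene symbol, and all 9 were found among the 24704 genes measured, with 1 probe set each. Expression was measured on Affymetrix arrays in 4 groups of 3 mice. Control mice were Nfat5fl/fl and received only the solvent miglyol, and knockout mice, Nfat5(EC)-/-, received 1 mg of tamoxifen a day for 5 days to delete Nfat5 in endothelial cells. Both sexes were used, at 10 to 12 weeks of age, with 2 to 3 weeks of recovery. The sexes were not evenly spread over oxygen states, since the mean of 3 Y-linked genes averaged 5.31 and 5.25 in normoxic control and knockout lungs and 3.89 and 3.87 in hypoxic ones. With that mean as a covariate 1794 genes were called with hypoxia in control lungs, against 2839 without it. Mice of either genotype then breathed normal air or hypoxic air for 21 days. Tamoxifen went only to the knockouts, so drug and deletion cannot be told apart, and which Cre line was used is not stated in the labels. The series' text counts 4 mice per group and says that preparations with other tissue or an inadequate response to hypoxia were left out, so the hypoxia comparisons rest on animals selected partly on that response.

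TGF-beta is secreted in a latent complex and is held in the extracellular matrix until it is activated. The active dimer binds the type II receptor Tgfbr2, which recruits and phosphorylates the type I receptor Tgfbr1, and this kinase phosphorylates Smad2 and Smad3. These enter the nucleus with Smad4 and switch on matrix genes, Ccn2 among them. In the lung the pathway is known for its part in fibrosis, in the growth of vascular smooth muscle and in the remodelling of small arteries under chronic hypoxia.

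All values are log2 expression, so a difference of 1 is a doubling. The level of 1 gene's probe set cannot be set against another's. Lung markers were high in every array, with Sftpc at 13.36 or above and Cdh5, the endothelial cadherin, at 11.94 or above. Heart muscle markers, as a mean of 9 genes, ran from 7.27 to 8.02 in control normoxia and from 7.26 to 7.38 in control hypoxia. In knockout lungs they ran from 7.33 to 9.44 in normoxia and from 6.52 to 7.14 in hypoxia. Ucp1, a brown fat gene, reached 9.31 in array 2 of knockout normoxia and 7.66 in array 1 of control hypoxia, and elsewhere 4.28 at most. Nfat5 itself averaged 9.11 and 8.67 in normoxic control and knockout lungs (limma adjusted p = 0.62) and 8.43 and 8.34 in hypoxic ones, so in whole lung it does not check the genotype labels. A mean of 12 nuclear noncoding RNAs went from 6.02 to 6.47 in normoxic and from 5.47 to 5.71 in hypoxic control lungs, and from 5.86 to 6.23 and 5.58 to 5.95 in the knockouts. Of these RNAs 6 of 12 fell with hypoxia in control lungs and 0 in knockout lungs, against 6.14% and 0.502% of all genes. The difference between the circadian clock genes, Dbp minus Arntl, ran from 0.42 to 3.72 in normoxic and from 5.64 to 6.21 in hypoxic control lungs. In the knockouts it ran from -0.10 to 1.81 and from 5.96 to 6.21. Clock state and oxygen therefore cannot be told apart in these arrays.

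With chronic hypoxia Ccn2 and the type II receptor Tgfbr2 were higher in control lungs, and Tgfbr2 in knockout lungs, by 1.29-fold to 1.72-fold. None of these calls held with the clock difference as a covariate, which moved with oxygen. The ligands Tgfb1, Tgfb2 and Tgfb3 had higher means in hypoxia in both genotypes but did not pass the test. Tgfbr1, the partner of Tgfbr2, had a lower mean in hypoxia, and Tgfbr3, Smad2 and Smad3 did not pass either. None of the 9 genes differed between knockout and control lungs past the test.

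In control lungs 2 of the 9 genes were called (22.2%), at an adjusted p under 0.05 from limma over all genes, where 11.5% of all genes were called, 5.36% higher and 6.14% lower. An unadjusted p under 0.05 was found for 6 of the 9, against 27.4% of all genes. The 3 hypoxic arrays did not overlap the 3 normoxic ones for 3 of the 9, namely Ccn2, Tgfbr2 and Tgfbr1, against 27.7% of all genes. Of all genes 14% lay higher and 13.7% lower. In knockout lungs 1 of the 9 was called, against 1.14% of all genes, 0.64% higher and 0.502% lower. An unadjusted p under 0.05 was found for 2 of the 9, against 12.6%. Without overlap were 3, Ccn2, Tgfbr2 and Smad2, all higher, against 19.8% of all genes, 10.9% higher and 8.97% lower. Averaged over both genotypes Ccn2 and Tgfbr2 were called, against 14.7% of all genes, 7.27% higher and 7.4% lower, and 6 of 9 had an unadjusted p under 0.05, against 28.4%. The median log2 change of the 9 was 0.36 in control and 0.13 in knockout lungs, and that of all genes was 0.01 and 0.00.

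**Figure D1:**
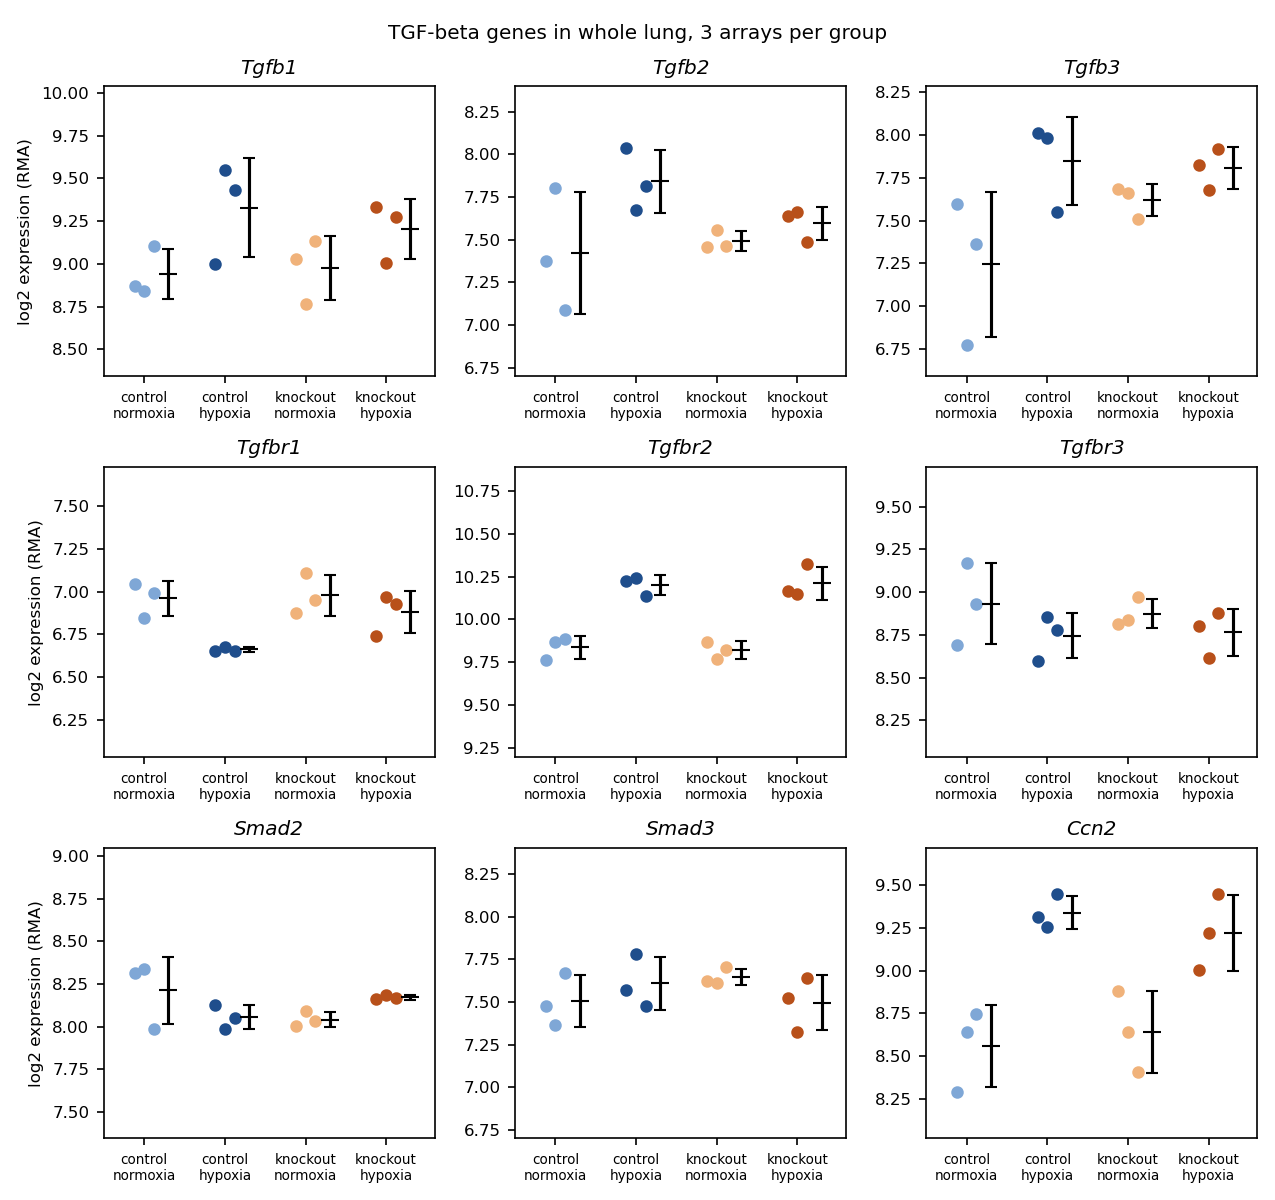
Log2 expression of the 9 TGF-beta genes (vertical axes, all of equal span) in the 4 groups of genotype and oxygen. Points are single arrays and bars are the mean and SD of 3. Ccn2 and Tgfbr2 lie higher in all 6 hypoxic arrays than in all 6 normoxic ones, and for the other genes these 6 and 6 overlap.

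Tgfb1 is the ligand most studied in fibrosis and immune regulation. Its level was 8.87, 8.84 and 9.11 in control normoxia and 9.0, 9.55 and 9.43 in control hypoxia. It was 9.03, 8.77 and 9.13 in knockout normoxia and 9.33, 9.0 and 9.27 in knockout hypoxia. In each genotype the lowest hypoxic array lay among the normoxic ones. The change with hypoxia was 0.39 ± 0.15 (SE) in control lungs (limma adjusted p = 0.12) and 0.23 ± 0.15 in knockout lungs (adjusted p = 0.61). Without control hypoxia 1, the array of high Ucp1, the control change was 0.55 ± 0.14 and passed (adjusted p = 0.031). With the nuclear RNA mean as a covariate it was -0.15 ± 0.20 (adjusted p = 0.94). Over the 12 arrays Tgfb1 ran against that mean (r = -0.85, rho = -0.80, and r = -0.78 within groups), and the part of nuclear RNA in its change was not tested further.

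Tgfb2 is a ligand that needs the coreceptor Tgfbr3 to bind well. It was 7.38, 7.80 and 7.09 in control normoxia and 8.04, 7.67 and 7.82 in control hypoxia. The knockout lungs had 7.46, 7.56 and 7.46 in normoxia and 7.64, 7.66 and 7.49 in hypoxia. Control normoxia 2 was as high as the hypoxic arrays, and all knockout arrays lay between 7.46 and 7.66. The change was 0.42 ± 0.15 in control (limma adjusted p = 0.10) and 0.10 ± 0.15 in knockout lungs (adjusted p = 0.88). Without control normoxia 2 the control change was 0.61 ± 0.12 (adjusted p = 0.032), and without control normoxia 4 it was 0.25 ± 0.14 (adjusted p = 0.26). With the nuclear covariate it was 0.87 ± 0.23 (adjusted p = 0.40).

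Tgfb3 is the ligand linked to palate fusion and lung development. It was 7.59, 6.77 and 7.36 in control normoxia and 8.01, 7.98 and 7.55 in control hypoxia. In knockout lungs it was 7.69, 7.66 and 7.51 in normoxia and 7.82, 7.68 and 7.92 in hypoxia. The control groups overlapped through normoxia 1 and hypoxia 4, and control normoxia 2 was the lowest of the 12. The change was 0.60 ± 0.19 in control lungs (limma adjusted p = 0.058) and 0.19 ± 0.19 in knockout lungs (adjusted p = 0.78). Omitting control normoxia 1 gave a control change of 0.78 (limma adjusted p = 0.042), and omitting control hypoxia 4 gave 0.75 (0.043). Omitting the low control normoxia 2 cut it to 0.37 ± 0.15 (adjusted p = 0.17). It also passed with a mean trend in the spread (adjusted p = 0.047) and with dim genes left out (adjusted p = 0.037).

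Tgfbr2 and Tgfbr1 bind the ligand as 1 complex, and Tgfbr2 was called with hypoxia while Tgfbr1 was not. The sequences just before their start sites are shown so that the 2 receptors can be set side by side. Each is the 250 bases upstream of the RefSeq start on the gene's own strand in the GRCm38.p6 assembly. Capitals mark CAGAC or its reverse GTCTG, the core of the box that Smad3 binds.
Tgfbr2 (chr9:116175364-116175613, minus strand): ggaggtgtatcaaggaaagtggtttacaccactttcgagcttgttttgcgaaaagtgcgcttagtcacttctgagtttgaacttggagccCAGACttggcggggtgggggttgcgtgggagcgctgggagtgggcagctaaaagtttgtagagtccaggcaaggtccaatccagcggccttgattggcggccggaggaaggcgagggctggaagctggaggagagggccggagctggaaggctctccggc
Tgfbr1 (chr4:47352972-47353221, plus strand): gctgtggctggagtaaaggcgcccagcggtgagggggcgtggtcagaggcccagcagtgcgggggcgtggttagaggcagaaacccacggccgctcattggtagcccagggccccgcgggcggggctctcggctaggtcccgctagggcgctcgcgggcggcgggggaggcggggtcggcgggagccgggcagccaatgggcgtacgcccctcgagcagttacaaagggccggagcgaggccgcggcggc
The core occurs once before Tgfbr2, with its first base 160 bases upstream of the start, and in none of the window before Tgfbr1. Of all 32851 windows of this length 42.2% hold it, so its presence is common. ACGTG, the core of the hypoxia response element (16.6% of windows), GGAATG, a TEAD site (12.6%), and TGGAAA, the core of the NFAT5 site (18.6%), each searched on both strands, were found in neither window. Upstream sequences were searched for 5 of the 9 genes, Tgfb1, Tgfb2, Tgfbr1, Tgfbr2 and Smad3. The other members were not searched, and the search left out any member window on a chromosome that was skipped. The Tgfb2 window held ACGTG at 2 places, CAGAC at 2 and TGGAAA at 1, and those of Tgfb1 and Smad3 held none of the 4 motifs. A second Tgfbr1 start had CAGAC at 1 place. These matches describe letters only.

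Tgfbr2 was 9.76, 9.87 and 9.88 in control normoxia and 10.23, 10.24 and 10.13 in control hypoxia. In knockout lungs it was 9.87, 9.77 and 9.82 in normoxia and 10.17, 10.15 and 10.32 in hypoxia. All 6 hypoxic arrays lay above all 6 normoxic ones, and within each oxygen state the genotypes overlapped. Tgfbr2 rose by 0.36 ± 0.08 in control lungs, a 1.29-fold change (limma adjusted p = 0.016), and by 0.39 ± 0.08 in knockout lungs, 1.31-fold (adjusted p = 0.041). Averaged over both it rose by 0.38 ± 0.06 (adjusted p = 0.0020). The control call was lost when control hypoxia 2 or control normoxia 1 was omitted, at 0.34 and 0.33 (adjusted p = 0.064 and 0.061). The knockout call was lost without any 1 of the 6 knockout arrays, of the 3 control hypoxia arrays or of control normoxia 2, with adjusted p up to 0.17, while the change stayed between 0.34 and 0.42. With the nuclear RNA covariate no Tgfbr2 call held, at 0.31 ± 0.14 in control (adjusted p = 0.67), 0.38 ± 0.09 in knockout (0.088) and 0.34 ± 0.09 averaged (0.22). Tgfbr2 and the nuclear mean had r = -0.71 and rho = -0.65 over the 12 arrays, or r = -0.22 within groups. The Y-linked covariate ended the knockout call (0.38 ± 0.09, adjusted p = 0.095), and fitting only the 2 groups compared ended both (adjusted p = 0.065 in control and 0.096 in knockout).

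Tgfbr1 encodes the kinase that phosphorylates Smad2 and Smad3. It was 7.04, 6.84 and 6.99 in control normoxia and 6.65, 6.68 and 6.65 in control hypoxia. In knockout lungs it was 6.87, 7.11 and 6.95 in normoxia and 6.74, 6.97 and 6.93 in hypoxia. The 3 hypoxic control arrays were the lowest of the 12 and spread by an SD of 0.01. The change was -0.30 ± 0.09 in control lungs, 0.81-fold (limma adjusted p = 0.058), and -0.10 ± 0.09 in knockout lungs (adjusted p = 0.76). With dim genes left out the control change, of the same size, passed (adjusted p = 0.049). With the nuclear covariate it was -0.15 ± 0.16 (adjusted p = 0.91), and over the 12 arrays Tgfbr1 and the nuclear mean had r = 0.72 and rho = 0.73, or r = 0.43 within groups.

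Tgfbr3, or betaglycan, is a coreceptor that presents ligand to Tgfbr2. Its means were 8.93 ± 0.24 (SD, n = 3) in normoxic and 8.74 ± 0.13 in hypoxic controls, and 8.87 ± 0.08 and 8.77 ± 0.14 in the knockouts. The 12 arrays ran from 8.60 to 9.17, and all 4 groups overlapped. The change with hypoxia was -0.19 ± 0.12 in control lungs (limma adjusted p = 0.37) and -0.11 ± 0.12 in knockout lungs (adjusted p = 0.82). The 95% intervals ran from -0.46 to 0.08 and from -0.38 to 0.16.

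Smad2 was 8.31, 8.34 and 7.99 in control normoxia and 8.13, 7.99 and 8.05 in control hypoxia. It was 8.0, 8.09 and 8.03 in knockout normoxia and 8.16, 8.19 and 8.17 in knockout hypoxia. The hypoxic knockout arrays lay above the normoxic knockout arrays and above the hypoxic controls. The changes were small, -0.16 ± 0.10 in control lungs (limma adjusted p = 0.32) and 0.13 ± 0.10 in knockout lungs (adjusted p = 0.66). Without control normoxia 4 the control change was -0.27 ± 0.08 and passed (adjusted p = 0.043), and without control normoxia 2 it was -0.09 ± 0.10 (adjusted p = 0.65). With the nuclear covariate it was 0.11 ± 0.14 (adjusted p = 0.94).

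Smad3 can bind DNA directly. Its means were 7.50 ± 0.15 (SD, n = 3) in normoxic and 7.61 ± 0.16 in hypoxic controls, and 7.65 ± 0.05 and 7.50 ± 0.16 in the knockouts. All groups overlapped. The change was 0.11 ± 0.11 in control lungs (limma adjusted p = 0.60) and -0.15 ± 0.11 in knockout lungs (adjusted p = 0.66). Across the 12 arrays Smad3 was high where Smad2 was low (r = -0.74, rho = -0.76, and r = -0.65 within groups). Smad2 had r = 0.75 with the nuclear mean within groups and Smad3 r = -0.62.

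Ccn2, or connective tissue growth factor, is a matricellular protein and a widely used readout of TGF-beta and of the mechanosensitive factors YAP and TAZ. It was 8.29, 8.64 and 8.75 in control normoxia and 9.32, 9.26 and 9.45 in control hypoxia. Knockout lungs had 8.88, 8.64 and 8.40 in normoxia and 9.0, 9.22 and 9.45 in hypoxia. All 6 hypoxic arrays lay above all 6 normoxic ones, as for Tgfbr2, and the genotypes overlapped within each oxygen state. Ccn2 rose by 0.78 ± 0.15 in control lungs, 1.72-fold (limma adjusted p = 0.012), and averaged over both genotypes by 0.68 ± 0.11, 1.6-fold (adjusted p = 0.0030). The knockout change alone was 0.58 ± 0.15 (adjusted p = 0.12) and did not pass. Leaving out any 1 array kept the control call, with changes from 0.65 to 0.87. With the nuclear covariate the control change was 0.86 ± 0.28 and did not pass (adjusted p = 0.52).

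**Figure D2:**
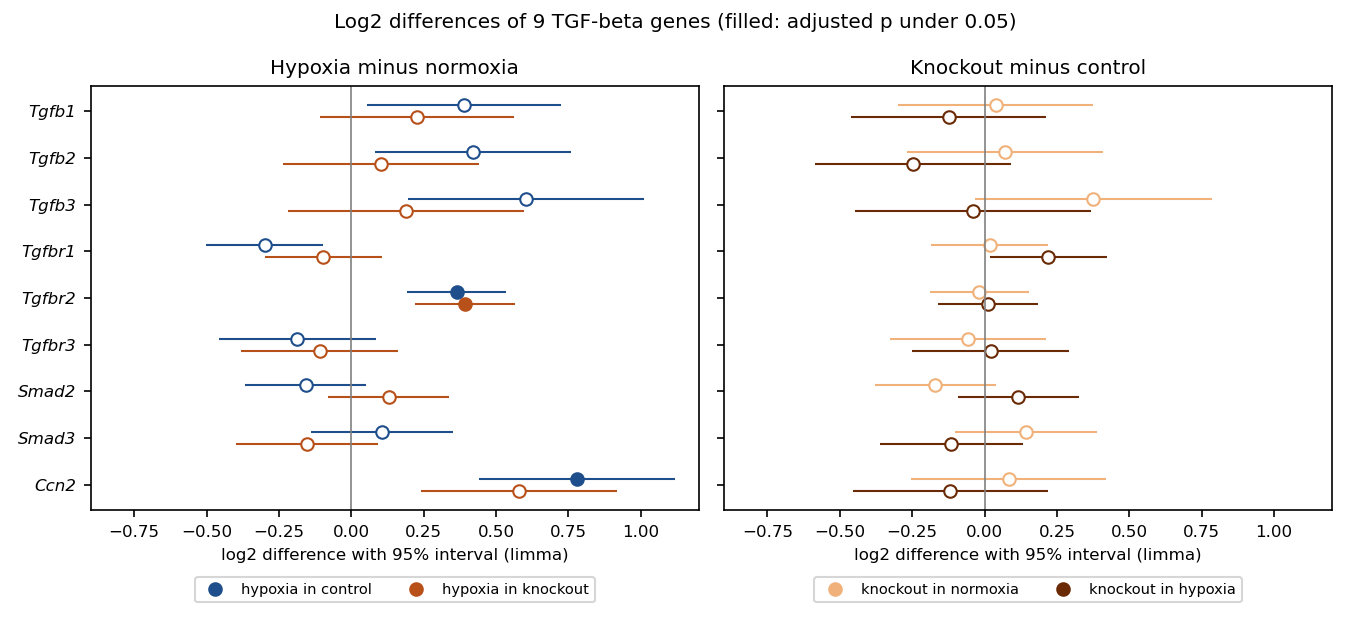
Log2 differences of the 9 genes (horizontal axes) with 95% intervals from limma, for hypoxia minus normoxia in each genotype (left) and knockout minus control in each oxygen state (right). Filled points have an adjusted p under 0.05. Filled points are Ccn2 in control lungs and Tgfbr2 in both genotypes, all on the left.

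In bulk lung, more RNA per cell and more cells of a type cannot be told apart. Some markers of cells that make and answer TGF-beta moved beside these genes, and others of the same lists did not. Of all genes 5.36% were called higher and 6.14% lower in control lungs, and 0.64% and 0.502% in knockout lungs. Smooth muscle markers rose in 5 of 10 in control lungs and 0 of 10 in knockout lungs, and their mean spanned 8.0 to 8.24 in normoxic and 8.45 to 8.60 in hypoxic controls, and 8.29 to 8.31 and 8.34 to 8.52 in knockouts. Fibroblast markers rose in 4 of 10 and 1 of 10, and their mean was 8.08 to 8.17, 8.47 to 8.48, 8.19 to 8.40 and 8.38 to 8.44 in the same order. Pericyte markers rose in 4 of 9 and 0 of 9, with means of 6.72 to 6.95, 7.18 to 7.33, 6.76 to 6.83 and 6.94 to 7.28. Macrophage and monocyte markers rose in 5 of 10 and fell in 1 in control lungs, and rose in 2 of 10 in knockout lungs. Endothelial markers had 1 rise and 2 falls among 10 in each genotype, with medians of -0.06 in control and -0.26 in knockout lungs. Markers of other cells fell. B cell markers fell in 5 of 7 in each genotype, with medians of -0.705 in control and -0.997 in knockout lungs. Ciliated cell markers fell in 4 of 9 and T and NK cell markers in 3 of 10 in control lungs, and neither in knockout lungs. Neutrophil markers fell in 1 of 7 in control and 2 of 7 in knockout lungs. The part of these shifts in the changes of Ccn2 and Tgfbr2 was not tested.

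None of the 9 genes was called for knockout against control, where limma called 1 gene in all in normoxia (0.00405%) and 0 in hypoxia (0%). Nor was any called averaged over both oxygen states (0% of all genes). At an unadjusted p under 0.05 there were 0 of 9 in normoxia, against 7.26% of all genes, 1 of 9 in hypoxia, against 5.1%, and 0 of 9 averaged, against 4.26%. That gene was Tgfbr1 in hypoxia, at 0.22 ± 0.09 (adjusted p = 0.95), where the knockout arrays lay above the controls. In hypoxia 3 of 9 did not overlap, Tgfbr1 and Smad2 higher and Tgfb2 lower in knockouts, against 9.74% of all genes, 4.55% higher and 5.19% lower. In normoxia there were 0 of 9, against 11.7%, 5.46% higher and 6.22% lower. No other setting, with the ordinary linear model among them, called a member in these comparisons.

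The intervals bound what these arrays could miss. For Tgfbr2 the knockout minus control difference lay within -0.19 to 0.15 in normoxia and -0.16 to 0.18 in hypoxia, at 95%. For Ccn2 it lay within -0.26 to 0.42 in normoxia and -0.46 to 0.22 in hypoxia. Tgfb3 had the largest SE of the 9, and its difference in normoxia was 0.38 with an interval from -0.03 to 0.78 (limma adjusted p = 0.71). The interval was thus narrow for Tgfbr2 and left room for larger differences in Ccn2 and Tgfb3.

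Whether the response to hypoxia differed between genotypes was tested by the interaction, the knockout change minus the control change. None of the 9 was called, where 1 of all genes was (0.00405%), and 0 had an unadjusted p under 0.05, against 8.25% of all genes. For Tgfbr2 the interaction was 0.03 ± 0.11, for Ccn2 -0.20 ± 0.22 and for Tgfb1 -0.16 ± 0.22. It was -0.32 ± 0.22 for Tgfb2, -0.42 ± 0.26 for Tgfb3 and 0.29 ± 0.14 for Smad2 (limma adjusted p = 0.62, the smallest of the 9). So Ccn2 was called in control and not in knockout lungs, but a difference between the genotypes was not shown. The 2 hypoxia changes use separate arrays, while each genotype comparison in this paragraph and the last shares its arrays with them.

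The other genes of the pathway were taken as lists by role. No gene of these lists had a called interaction, so a change called in only 1 genotype does not show a difference between genotypes. Their counts stand beside 5.36% of all genes called higher and 6.14% lower in control lungs. In knockout lungs, where calls were rarer, these shares were 0.64% and 0.502%, and averaged over both genotypes 7.27% and 7.4%. Those that hold TGF-beta latent or activate it rose in 5 of 14 measured in control lungs and 2 of 14 in knockout lungs, with 0 falls and medians of 0.29 and 0.22. Ltbp2, an elastic fibre protein related to the latent TGF-beta binding proteins, rose by 1.34 ± 0.22 in control (limma adjusted p = 0.0061) and by 1.04 ± 0.22 in knockout lungs (adjusted p = 0.046). Adamtsl2, a microfibril protein that binds Ltbp1, rose by 1.09 ± 0.21 and 1.22 ± 0.21. Emilin1, which limits processing of the TGF-beta precursor, rose by 0.93 in control lungs (0.35 ± 0.18, adjusted p = 0.45, in knockout). Ltbp1, which binds the latent complex to matrix, rose by 0.49 in control lungs, and Furin, the protease that cuts the precursor, by 0.35. The list had 3 to 6 rises in control and 0 to 2 in knockout lungs without any 1 array, and 0 and 1 with the nuclear covariate. With that covariate only 2 of all genes were called in control lungs and 164 in knockout lungs, which bears on each list below.

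Of 7 other receptors and coreceptors, 0 rose and 1 fell in each genotype. This was Eng, endoglin, the endothelial coreceptor, which fell in knockout lungs by 0.61 (limma adjusted p = 0.037), as far as in control lungs, with an interaction of 0.00 ± 0.17. Endothelial markers had 1 rise and 2 falls among 10 in each genotype. Acvrl1, the endothelial type I receptor, was -0.12 ± 0.11 in control lungs (adjusted p = 0.52). This one was chosen after its value was seen.

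Of 16 Smad partners, inhibitors and regulators, 1 rose and 4 fell in control lungs, and 1 rose and 0 fell in knockout lungs. The riser was Pmepa1, a target of TGF-beta that binds and restrains Smads. It went from 7.26 ± 0.19 to 8.13 ± 0.06 (SD, n = 3) in control lungs (limma adjusted p = 0.0015) and from 7.33 ± 0.04 to 8.09 ± 0.05 in knockout lungs (adjusted p = 0.0051). The changes were 0.87 ± 0.09 and 0.76 ± 0.09, with no overlap in either genotype. The ubiquitin ligases Smurf2 (-0.58), Wwp1 (-0.66) and Trim33 (-0.53), which act on receptors or Smads, fell in control lungs, as did the deubiquitinase Usp15 (-0.68). In knockout lungs Smurf2 was -0.40 ± 0.09 (adjusted p = 0.074), and Wwp1 and Trim33 were -0.24 and -0.08. The 4 falls were 1 to 5 without any 1 array, 2 with Y-linked genes as a covariate and 0 with the nuclear covariate. In the branch that does not use Smads, 2 of 11 fell in control lungs, the kinase Map3k7 (-0.55) and its partner Tab3 (-0.61), and 0 in knockout lungs. Those falls were 0 to 3 without any 1 array and 0 with the nuclear covariate.

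Activins share Smad2 and Smad3 with TGF-beta. Of 10 genes for activins, their receptors and their binding proteins, 4 rose in control and 0 in knockout lungs, and 0 fell in either. Averaged over both genotypes 3 rose and 2 fell. The receptors Acvr2a (-0.40 ± 0.12, limma adjusted p = 0.043) and Acvr1b (-0.30 ± 0.08, adjusted p = 0.026) were called lower in that average. The follistatins Fst and Fstl3, which trap activin, rose by 0.46 and 0.75 in control lungs and were 0.45 ± 0.11 and 0.66 ± 0.17 in knockout lungs (limma adjusted p = 0.078 and 0.095). Fstl1, a related matrix glycoprotein, rose by 0.87, and Inhba, the activin A subunit, by 0.60 in control lungs. In knockout lungs they were 0.16 ± 0.13 and 0.02 ± 0.17, and neither interaction passed (limma adjusted p = 0.574 and 0.596). The 4 rises were 1 to 4 without any 1 array, 2 without the 2 arrays of high Ucp1 and 0 with the nuclear covariate.

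Of 24 other TGF-beta target genes 10 rose in control lungs and 0 fell, with a median of 0.54, and 1 rose and 1 fell in knockout lungs, with a median of 0.07. The fibronectin gene Fn1 rose in both, by 0.89 ± 0.14 and 0.66 ± 0.14 (limma adjusted p = 0.0053 and 0.046). Col1a2, a chain of type I collagen, rose by 0.84, Lox, the collagen crosslinking enzyme, by 0.79 and Tagln, an actin-binding protein of smooth muscle, by 0.55 in control lungs. In knockout lungs these were 0.41 ± 0.13, 0.59 ± 0.13 and 0.04 ± 0.08 and did not pass. Cdkn2b, a cell cycle inhibitor, fell in knockout lungs by 0.54 (adjusted p = 0.017) and was -0.03 ± 0.09 in control lungs. The interaction lay above 0 for 3 of the 24 with a median of -0.24, against 0.00 for all genes, and 0 passed. Knockout minus control lay above 0 for 19 of the 24 in normoxia (median 0.15) and for 8 in hypoxia (median -0.14). In either state 0 passed. The 10 rises were 5 to 11 without any 1 array and 0 with the nuclear covariate. Several of these genes also mark smooth muscle or fibroblasts, whose ranges are given above.

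**Figure D3:**
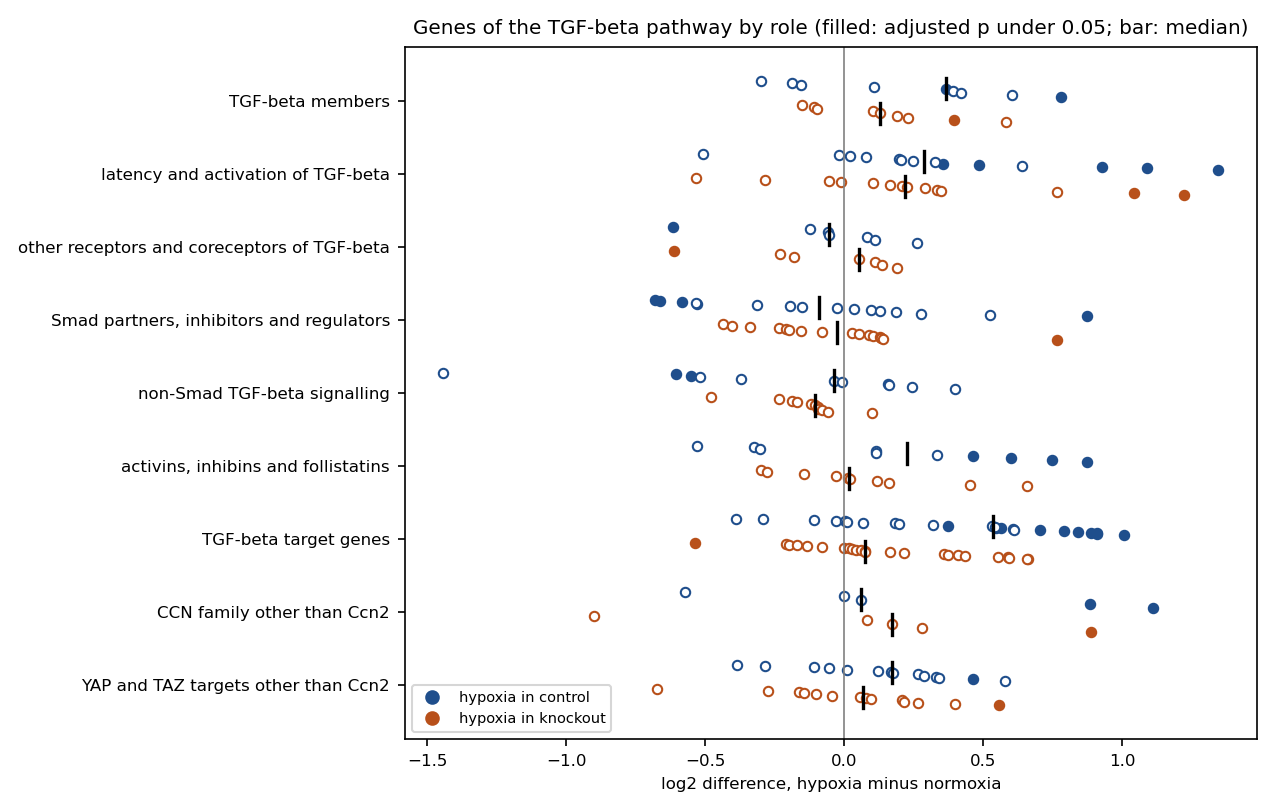
Log2 difference, hypoxia minus normoxia (horizontal axis), of each gene in the 9 TGF-beta genes and 8 lists by role, in control (blue) and knockout (orange) lungs. Points are genes, filled where the adjusted p is under 0.05, and black bars are list medians. TGF-beta target genes have medians of 0.54 in control and 0.07 in knockout lungs.

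Ccn2 is 1 of 6 CCN genes, and its relatives went separate ways. Ccn5, which lacks the last domain of the family, rose by 0.88 ± 0.15 in control and 0.89 ± 0.15 in knockout lungs (limma adjusted p = 0.0076 and 0.021). Ccn4, known as a Wnt-induced gene, rose by 1.11 ± 0.17 in control lungs, from a low 4.10 to 5.20, and was 0.28 ± 0.17 in knockout lungs. Ccn1, a close relative of Ccn2 and also a YAP target, fell by 0.74 averaged over both genotypes (adjusted p = 0.0088), opposite to Ccn2. Taken apart, the changes of -0.57 ± 0.21 in control and -0.90 ± 0.21 in knockout lungs did not pass. Of 14 other YAP and TAZ genes 1 rose in each genotype, Tead4, a DNA-binding partner of YAP, by 0.46 and 0.56. The other 13 did not pass in either genotype. Averaged over both genotypes, as for Ccn1, 2 of the 14 rose and 1 fell. Ajuba was 0.30 ± 0.08 (limma adjusted p = 0.0275) and Crim1 -0.27 ± 0.08 (adjusted p = 0.0486) in that average.

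The genes most like each member were ranked by Pearson's r over the 12 arrays, as a description. Ccn2 was followed most closely by Tubb6, a tubulin (r = 0.97, rho = 0.98, and r = 0.97 within groups), then Gask1b (0.94, and 0.67 within groups) and Map4 (0.94, and 0.68 within groups). Tgfbr2 was followed by Sema5a (r = 0.97), Mfap5 (0.97) and Art4 (0.97), which fell to 0.79, 0.55 and 0.54 within groups. Tgfb1 was followed by Mrtfa, a coactivator of serum response factor (r = 0.96, and 0.97 within groups). Tgfb3 was nearest to Atp6v1b2 (0.95), Tgfbr1 to Fcho1 (0.93) and Tgfb2 to Psme3 (0.92). Among the 9 genes, Ccn2 and Tgfbr2 were most alike (r = 0.92, rho = 0.89, and r = 0.57 within groups). Both genes of a pair were measured in the same RNA on the same arrays, with shared normalization, so these r values carry no test.

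**Figure D4:**
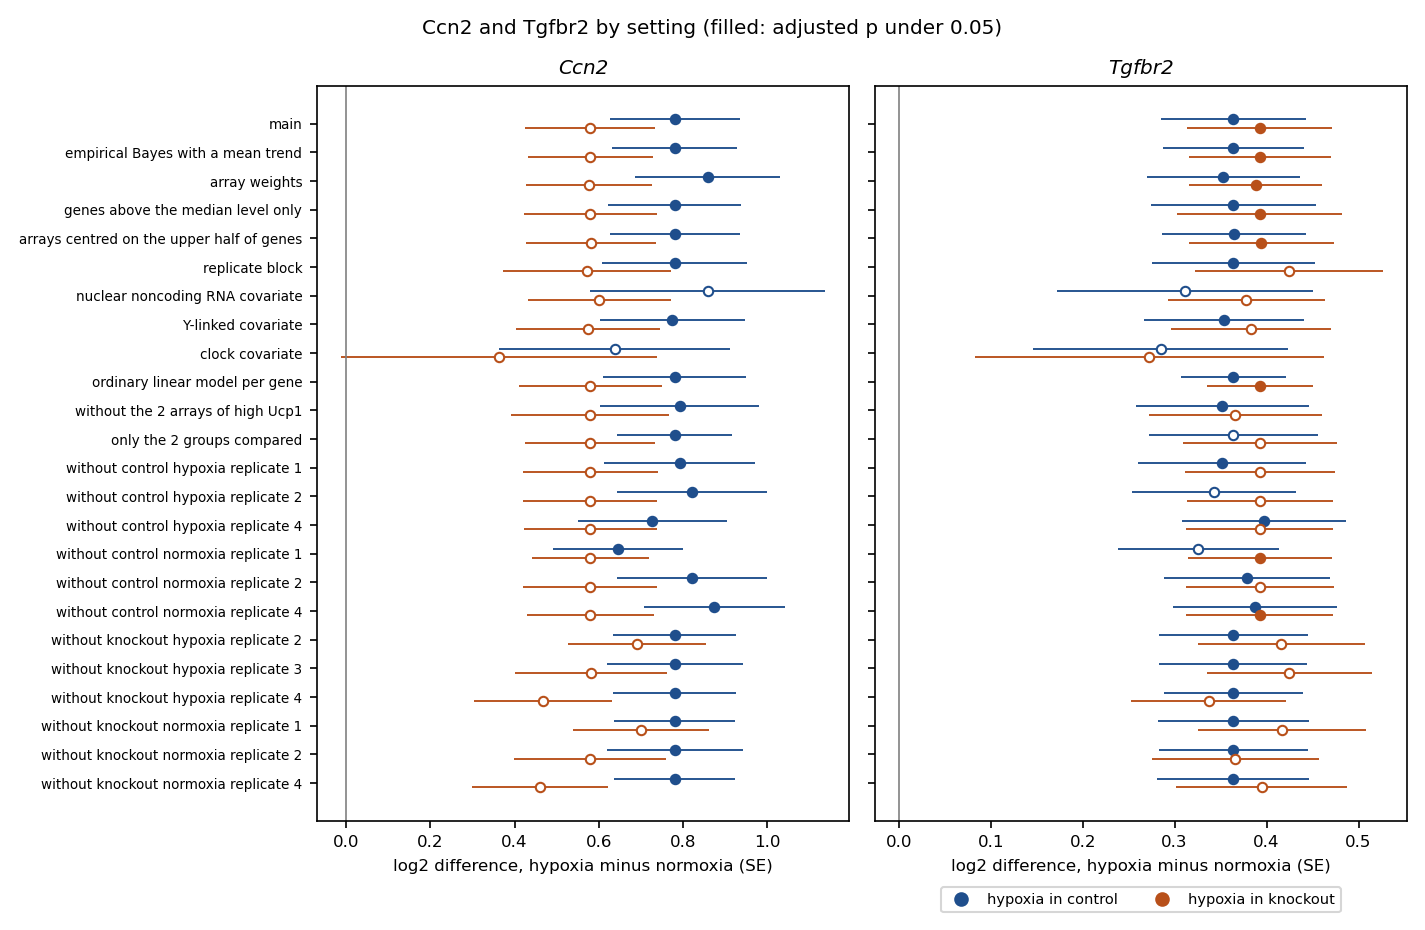
Log2 change with hypoxia (horizontal axes, bars are SE) of Ccn2 (left) and Tgfbr2 (right) in control (blue) and knockout (orange) lungs under each setting (rows). Filled points have an adjusted p under 0.05. Every value lies above 0, and Ccn2 in knockout lungs is open in each row.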

How the data were processed

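The members and gene lists were chosen with earlier results of these data known. The authors deposited log2 values made with RMA, per the submitters' processing notes, which corrects background, brings arrays to 1 distribution and summarises probes. The version and any filter are not stated there. After sorting, all 12 arrays held identical values (largest difference 0), so a change in total RNA cannot be seen. Of 25428 probe sets 24705 had 1 symbol in the platform annotation, 723 had none, and 1 second probe set was dropped.

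Genes were fitted as 4 group means with limma 3.58.1 in R 4.3.3 (8 residual degrees of freedom), with two-sided tests and Benjamini-Hochberg adjustment over 24704 genes per contrast. Errors are limma's SE unless called SD. The script was checked on simulated data. Replicates are taken as separate mice, since the series' text counts mice. If they are not, p-values measure technical spread only. The number of arrays limits precision. Named genes were the 9 members, up to 4 called genes per list in control hypoxia, up to 2 in other contrasts, and the 3 nearest by correlation. Alternatives were a mean trend, array weights, a filter on dim genes, another centring, a replicate block, 3 covariates (nuclear RNA, Y-linked genes, and the clock genes Dbp minus Arntl), the ordinary linear model, the 2 groups alone and arrays left out.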

Additional observations from a re-analysis of the deposited data

How the results depend on the processing

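The number of members called with hypoxia was 2 in control lungs, 1 in knockout lungs and 2 averaged. With the nuclear RNA covariate all 3 counts were 0. Of all genes 2, 164 and 77 were then called, against 2839, 282 and 3622 without it. With the clock covariate, which separates hypoxic from normoxic arrays, the 3 counts were also 0, where 7, 0 and 0 of all genes were called. In control lungs the count was 4 with dim genes left out, where 3081 of 12358 genes tested were called. It was 1 when only the 2 groups were fitted, where 1100 of 24704 were called. In knockout lungs the count was 0 with the Y-linked covariate, without the 2 arrays of high Ucp1 and when only the 2 groups were fitted. There 166, 51 and 197 of all genes were called. Leaving out 1 array gave 1 to 3 in control lungs, 0 to 1 in knockout lungs and 2 to 3 averaged. The calls over all genes then ran from 808 to 3920, from 71 to 258 and from 2254 to 4426. The nuclear mean separates hypoxic from normoxic control arrays, and the clock difference does so in both genotypes. Fits with these covariates therefore cannot tell them apart from oxygen, and the cause was not tested. The genotype and interaction counts were 0 in every setting run. Among values of single members under these settings, 27 lost and 15 gained a call, 1380 kept their side of the threshold, and 0 that were called changed sign. Counts for the pathway lists under other settings were added after the data were seen.

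With the replicate block the count in knockout lungs was 0 (Tgfbr2 0.42 ± 0.10, limma adjusted p = 0.17), where 40 of all genes were called. In control lungs it was 2, where 2058 were called. Pairing of arrays by number was not seen. Of 15 same-numbered pairs 4 correlated above 0.1 (range -0.25 to 0.28), as did 13 of 39 pairs of different number (range -0.32 to 0.34). Of 11 arrays 2 correlated best with their own number. With 3 arrays a group these correlations cannot show that the numbers mark no shared handling.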

Other observations

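Ankrd1, a YAP target that heart muscle also makes, was 9.86 in knockout normoxia 2, against 7.79 to 8.97 in the other 11 arrays. That array also had the highest heart muscle mean (9.44) and Nppa, an atrial hormone (11.94). The Ankrd1 change in knockout lungs was -0.67 ± 0.34 (limma adjusted p = 0.46). Ccn2 in the same array was 8.64, the middle of its group. Ankrd1 was chosen after its values were seen.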
